A study of Mus musculus with 18 samples.

Results

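The 10 genes described here encode proteins of the basement membrane, the thin sheet of extracellular matrix on which many cells rest. They were taken by symbol (Col4a1, Col4a2, Col4a5, Lama2, Lama4, Lamb1, Lamc1, Nid1, Nid2 and Hspg2), and each matched 1 of the 55487 gene rows in the count table. The RNA came from MEFs, fibroblasts cultured from mouse embryos. The cells were plated in growth medium with 10% serum that held no added uracil (control, 0 µM), 10 µM uracil or 30 µM uracil, and were harvested after 24 h. The titles number the libraries of a dose from 1 to 6. The labels give no strain, embryo age or genotype for the MEFs, and do not say whether a number marks a culture, an embryo or a day, so p-values measure the spread between these libraries only.

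A basement membrane is built on laminin, a cross-shaped trimer of an alpha, a beta and a gamma chain that binds cell-surface receptors and assembles into a network. Collagen IV, a trimer of alpha chains, forms a second network that gives the sheet its strength, and nidogens and the heparan sulfate proteoglycan perlecan link the networks. Fibroblasts are known to supply many of these chains to the basement membranes of neighbouring cells.

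Counts in genes were 3.96 M in control 1, 7.39 M in 30 µM 6 and 11.6 M to 20.8 M in the rest. Unaligned read pairs were 54.2% in control 1 (Wilson 95% interval 54.19% to 54.24%), 37.9% in 30 µM 6 (37.84% to 37.88%) and 5.24% in 10 µM 6 (5.24% to 5.25%), against 1.72% to 3.59% in the other 15. The intervals cover counting error only. The study removed a vehicle and a 30 µM sample that held human RNA, and the labels do not name them. Whether they were control 1 and 30 µM 6 is thus not stated. All libraries were kept, and the main counts are also given without the 3 with most unaligned pairs. The 8 fibroblast markers summed to 21760 to 53173 CPM, led by Col1a2, where CPM are counts scaled to a common library size. Nearly all of that sum was Col1a1, Col1a2 and Vim, with means of 9839, 9900 and 5487 CPM, while Pdgfra averaged 36.2 CPM and Lum 4.58 CPM (0.252 to 12.4), genes picked here after their values were seen. Smooth muscle or pericyte markers summed to 2937 to 4141 CPM, led by Acta2, and mesothelial markers to 82.7 to 264 CPM, led by Krt19. Markers of endothelial cells (led by Kdr), epithelial cells (Krt8), adipocytes (Fabp4), macrophages (Csf1r), Schwann cells and skeletal muscle cells (Myh3) stayed at or below 23.0 CPM per list, with Foxd3, Myod1 and Adipoq at 0 in every library.

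All 10 genes were expressed in every library and passed the filter on low counts, but their levels per length spanned a wide range. On the scale of CPM per kb of merged exons, Col4a1 was highest (104 ± 16.96, SD, n = 18). Hspg2 (74.9 ± 44.9), Nid1 (64.4 ± 14.96), Col4a2 (62.0 ± 18.3), Lamc1 (53.2 ± 8.18), Col4a5 (51.9 ± 4.80) and Lamb1 (50.4 ± 5.46) followed, and neighbours in this group differed by less than the larger of their SDs. Nid2 was lower (23.7 ± 3.19), and the laminin alpha chains Lama2 (6.12 ± 1.53) and Lama4 (3.51 ± 1.54) were lowest. The ranges of these 3 genes did not overlap those of the 7 above, while those of Lama2 and Lama4 overlapped each other. Without the 3 libraries with most unaligned pairs the order of the lowest 3 and of Col4a1 was kept, and Hspg2 moved to 57.5 ± 6.84 CPM per kb (n = 15), behind Nid1 at 58.4 ± 4.79.

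**Figure D1:**
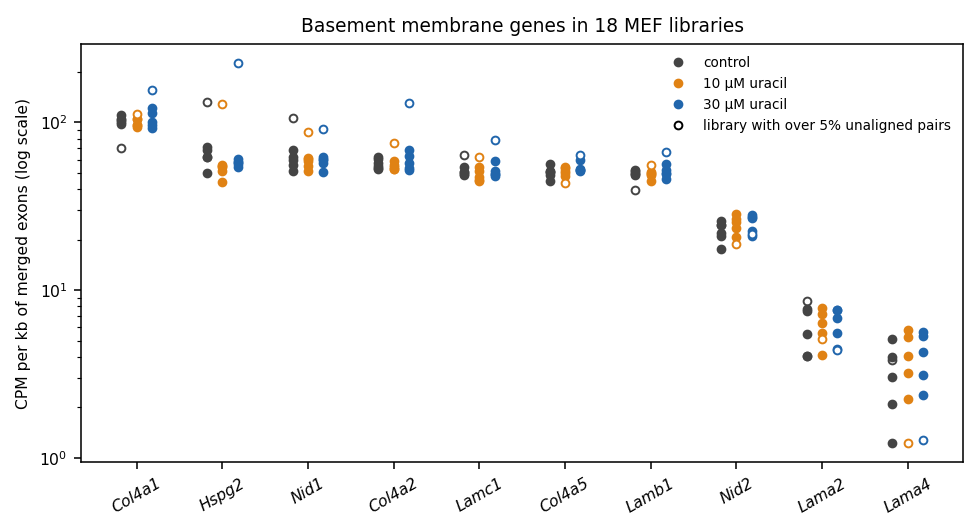
CPM per kb of merged exons (log axis) of each gene, 1 point per library and coloured by dose, with the 3 libraries with over 5% unaligned pairs as open points. Col4a1 averaged 104 CPM per kb and Lama4 3.51, and the open points lie farthest out for Hspg2, Nid1 and Col4a2.

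More of the genes passed the test for replicate number than for dose. In an additive model of dose and number, 3 of the 10 genes differed among the 6 numbers (Lama4, Lama2 and Nid2), where 12.6% of the 13865 genes tested did (edgeR quasi-likelihood F test, adjusted p under 0.05). Without the 3 libraries with most unaligned pairs 5 of the 10 differed, with Nid1 and Lamc1 added, where 20.8% of 13888 genes did. With numbers 2 to 5 alone, which hold none of the 3 and have 1 library of each dose per number, the count was again 5 and the background 19.9% of 13872 genes. Leaving out control 1 gave 7 of the 10 (3498 genes in all) and leaving out control 6 gave 8 (3271 genes), while the other 16 single removals gave counts of genes within 1.5 times the full set.

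**Figure D2:**
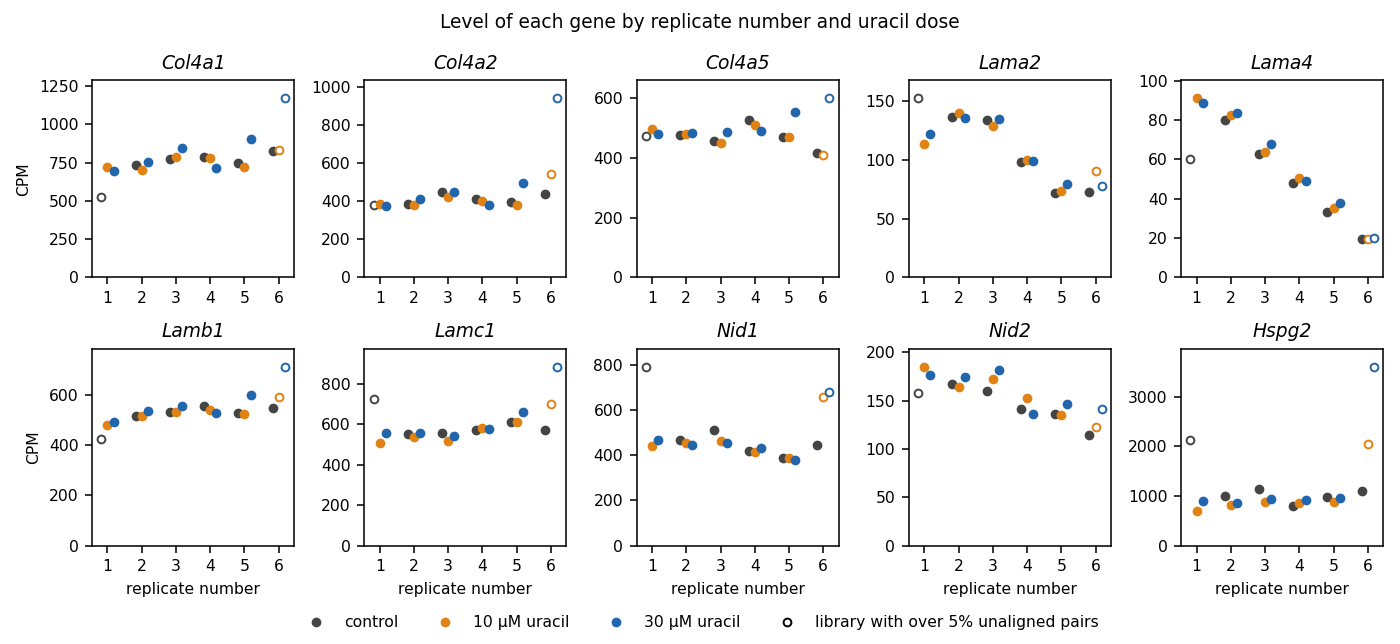
CPM of each gene (linear axes from 0) by replicate number, with points coloured by dose and the 3 libraries with over 5% unaligned pairs open. Lama4 lies at 80.2 to 83.5 CPM in the libraries numbered 2 and at 19.2 to 20.1 in those numbered 6, whereas Hspg2 stands out only in the 3 open points, at 2037 to 3603 CPM.

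Among the 10 genes, the laminin alpha chains Lama4 and Lama2 had the largest shares of variance between numbers. Over the 18 libraries, however, Hspg2 had a larger coefficient of variation (59.9%, against 44.0% for Lama4 and 25.1% for Lama2). Lama4 (ENSMUSG00000019846, GRCm39 chromosome 10, 38841141 to 38998403, plus strand) encodes the alpha chain of laminins found around blood vessels, fat and other mesenchymal cells. Its level was 60.3 CPM in control 1, 91.1 in 10 µM 1 and 88.4 in 30 µM 1. In the libraries numbered 2 it was 80.2, 82.6 and 83.5 CPM (control, 10 µM and 30 µM in this order, here and in what follows), and in those numbered 3 it was 62.6, 63.5 and 67.6. Libraries of different doses with the same number lay close together, apart from control 1. Those numbered 4 held 48.0, 50.4 and 48.9 CPM, those numbered 5 33.1, 35.2 and 37.5, and those numbered 6 19.2, 19.4 and 20.1. The values of any 2 of the numbers 2 to 6 did not overlap. The mean was 4.20 times higher in number 2 than in number 6, a ratio of highest to lowest number that was smaller in 98.7% of the 13044 genes with a mean of at least 1 CPM. Lama4 differed by number with an adjusted p of 3.22e-08 by edgeR, and of 5.90e-11 to 1.01e-06 when each library was left out in turn.

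Lama2 (ENSMUSG00000019899, chromosome 10, 26856032 to 27495754, minus strand) encodes the alpha chain of merosin, the laminin of muscle and peripheral nerve, where its loss causes muscular dystrophy. It was 153, 114 and 122 CPM in number 1, 137, 140 and 136 in number 2 and 134, 129 and 135 in number 3. In number 4 it was 98.3, 99.7 and 99.3 CPM, in number 5 71.9, 73.6 and 79.6, and in number 6 72.6, 90.8 and 78.1. All 9 libraries numbered 1 to 3 were thus above all 9 numbered 4 to 6, and numbers 5 and 6 overlapped. How many of all genes split in this way was not counted. The ratio of highest to lowest number was smaller than that of Lama2 in 87.6% of genes with a mean of at least 1 CPM. The adjusted p for number was 3.98e-05 by edgeR, and of the variance of log2 CPM over the 18 libraries number held 93.0% for Lama2 and 97.4% for Lama4, against a median of 40.8% over all genes. Relative to each other the chains also shifted, the CPM of Lama2 being 3.79 to 4.68 times that of Lama4 in number 6 and 1.25 to 2.53 times in the other numbers. Such ratios of CPM are used here to compare libraries, not genes, whose lengths differ.

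In these bulk libraries, fewer cells of a type and less RNA per cell cannot be told apart. Markers of some other cell types moved with number. Mesothelial markers summed to 82.7 to 111 CPM in numbers 1 to 3 and 173 to 264 CPM in numbers 4 to 6, and all 5 differed by number (edgeR, adjusted p under 0.05, where 12.6% of all genes did). Of the smooth muscle or pericyte markers 4 of 6 did, with sums of 3714 to 4141 CPM in numbers 1 to 3 and 2937 to 3807 in numbers 4 to 6. Of the fibroblast markers 4 of 8 did, and so did the 1 adipocyte marker tested. Of the endothelial, epithelial and macrophage markers 0 did, with 2 tested in each list. When the 3 libraries were left out 6 of 6 smooth muscle or pericyte and 6 of 8 fibroblast markers differed, where 20.8% of all genes did. The fibroblast sum of the 15 libraries, set mostly by its 3 most abundant genes, was 21760 to 24952 CPM, but the means of the numbers ran from 0.252 to 9.84 CPM for Lum, 65.4 to 209 for Dcn and 130 to 238 for Pdgfrb. In these 15 libraries number 6 is control 6 alone. The part of these cell types in the differences of Lama4, Lama2 and Nid2 was not tested. Read pairs of low alignment quality, which were kept out of the counts, also split by number. They were 4.79% to 7.17% of pairs in the libraries numbered 1 to 3 and 7.76% to 13.1% in those numbered 4 to 6. Their part in these differences was not tested either.

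The sequence before the start of Lama2 is shown because it was the only gene of the 3 called by number with an entry among the RefSeq promoter windows (GRCm38.p6), in which 7 of the 10 genes were matched. The Lama2 window covers chr10:27616943-27617192 on the minus strand. Lamb1, the beta chain that joins both alpha chains and had the smallest coefficient of variation of the 10 genes in numbers 2 to 5 (4.37%), is shown beside it (chr12:31265043-31265292, plus strand). Each line gives the 250 bases before the start, 5′ to 3′, with matches on either strand in capitals. The motifs searched were CCAAT, the GC box motif GGGCGG, the TATA motif TATAAA and the CArG box, which do not overlap here.
Lama2: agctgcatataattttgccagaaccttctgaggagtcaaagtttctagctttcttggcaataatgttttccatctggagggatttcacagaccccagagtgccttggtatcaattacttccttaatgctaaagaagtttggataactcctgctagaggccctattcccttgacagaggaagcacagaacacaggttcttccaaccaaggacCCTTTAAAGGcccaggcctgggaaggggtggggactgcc
Lamb1: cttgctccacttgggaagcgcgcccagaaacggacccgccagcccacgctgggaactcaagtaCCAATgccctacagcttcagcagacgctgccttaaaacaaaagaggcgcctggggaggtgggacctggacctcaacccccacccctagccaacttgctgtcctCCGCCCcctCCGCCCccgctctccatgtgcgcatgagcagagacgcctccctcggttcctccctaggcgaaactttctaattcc
The Lama2 window had 47.2% GC and the Lamb1 window 62.0%, where the median of 32851 windows was 52.4%. Lama2 held a CArG box, CCTTTAAAGG, 39 bases before the start, and none of the other 3 motifs. A CArG box was present in 1.47% of all windows, and it was added to the search after the sequence had been seen. Lamb1 held 1 CCAAT and 2 CCGCCC, the reverse complement of GGGCGG, which occur on either strand in 33.8% and 32.7% of windows. TATAAA, found in 12.4%, was in neither. These are matches of letters only.

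The beta and gamma chains Lamb1 and Lamc1, shared by most laminins of fibroblasts, were steadier than Lama2 and Lama4. Lamb1 (ENSMUSG00000002900, chromosome 12, 31315030 to 31379658, plus strand) was 425 to 714 CPM over all libraries and 518 to 603 CPM in numbers 2 to 5. It was lowest in control 1 and highest in 30 µM 6, and its adjusted p for number was 0.0593 in all 18 libraries and 0.118 without the 3 with most unaligned pairs (edgeR). Lamc1 (ENSMUSG00000026478, chromosome 1, 153094597 to 153208774, minus strand) was 510 to 887 CPM. Its values in number 5 were 612, 612 and 662 CPM, above all 9 libraries numbered 2 to 4 (516 to 584). Its adjusted p for number was 0.222 in all 18 libraries, 0.00249 without the 3 libraries and 0.00221 in numbers 2 to 5 (edgeR). Lamc1 was highest in the 3 libraries with most unaligned pairs (726, 702 and 887 CPM). The CPM of Lamb1 was 0.585, 0.847 and 0.805 times that of Lamc1 in control 1, 10 µM 6 and 30 µM 6, and 0.859 to 1.03 times in the other 15 libraries.

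Nid2 (ENSMUSG00000021806, chromosome 14, 19801298 to 19861855, plus strand) and Nid1 (ENSMUSG00000005397, chromosome 13, 13612071 to 13686860, plus strand) encode the nidogens, rod-shaped linkers that bind the laminin gamma chain and collagen IV. Nid2 was 158, 185 and 177 CPM in number 1, 167, 165 and 175 in number 2, and 160, 173 and 182 in number 3. In number 4 it was 142, 152 and 136 CPM, in number 5 137, 135 and 147, and in number 6 114, 122 and 141. All libraries numbered 1 to 3 were above all numbered 4 to 6, with an adjusted p for number of 0.00232 by edgeR. The ratio of highest to lowest number was smaller than that of Nid2 in 62.9% of genes with a mean of at least 1 CPM. How many of all genes split between numbers 1 to 3 and 4 to 6 was not counted. Nid1 did not follow that split. It was 792, 659 and 680 CPM in control 1, 10 µM 6 and 30 µM 6 and 379 to 511 CPM in the other 15. Among those it was lowest in number 5 (387, 387 and 379 CPM). The adjusted p of Nid1 for number was 0.139 in all 18 libraries and 5.25e-04 without the 3 libraries (edgeR).

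Hspg2 (ENSMUSG00000028763, chromosome 4, 137196079 to 137298231, plus strand) encodes perlecan, a large proteoglycan that carries heparan sulfate chains and binds growth factors. It had 2116 CPM in control 1, 2037 in 10 µM 6 and 3603 in 30 µM 6, and 706 to 1133 CPM in the other 15 libraries. The 3 libraries with most unaligned pairs thus lay above all others at every dose. Number held 50.7% of the variance of its log2 CPM over 18 libraries, and its adjusted p for number was 0.136 in all 18 libraries and 0.367 without the 3 (edgeR). The part of the unaligned pairs in this difference was not tested. The 250 bases before the start (RefSeq, GRCm38.p6, chr4:137468553-137468802, plus strand) are shown because Hspg2 moved most in those libraries.
Hspg2: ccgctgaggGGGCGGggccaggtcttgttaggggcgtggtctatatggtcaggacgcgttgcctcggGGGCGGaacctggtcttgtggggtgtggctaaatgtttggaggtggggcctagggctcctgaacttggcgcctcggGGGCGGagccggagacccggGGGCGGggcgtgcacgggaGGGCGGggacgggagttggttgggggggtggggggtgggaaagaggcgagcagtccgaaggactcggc
The window had 70.0% GC, more than 90.8% of all windows, and held 5 matches to GGGCGG, 68 to 241 bases before the start.

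The collagen IV chains did not pass the threshold for number in the full set. Col4a1 (ENSMUSG00000031502, chromosome 8, 11248423 to 11362826, minus strand) and Col4a2 (ENSMUSG00000031503, chromosome 8, 11362471 to 11499287, plus strand) encode the chains of the common trimer and lie head to head, so that their annotated exons overlap on opposite strands. Col4a1 was 521 CPM in control 1, 1171 in 30 µM 6 and 692 to 903 in the other 16 libraries. Col4a2 was 940 CPM in 30 µM 6, 542 in 10 µM 6 and 373 to 495 in the other 16. The chains moved in parallel in most libraries. The CPM of Col4a1 was 1.74 to 1.94 times that of Col4a2 in the 15 libraries with fewest unaligned pairs, but 1.38, 1.54 and 1.25 times in control 1, 10 µM 6 and 30 µM 6. The adjusted p for number was 0.0902 for Col4a1 and 0.0559 for Col4a2 in all 18 libraries, and 0.256 and 0.231 without the 3 (edgeR). Col4a5 (ENSMUSG00000031274, chromosome X, 140258354 to 140472231, plus strand), a chain of the trimers of kidney and other specialised basement membranes that is mutated in Alport syndrome, had the smallest coefficient of variation over the 18 libraries (9.24%). It was 409 to 600 CPM and its adjusted p for number was 0.880 (edgeR). Its adjusted p without the 3 libraries was 0.118 (unadjusted 0.0338, edgeR), number held 59.9% of its variance in place of 13.4%, and its coefficient of variation of 6.74% was above that of Lamb1 (5.26%). Over all genes the median share held by number also rose, from 40.8% in all 18 libraries to 51.9% without the 3. The strand setting of the counting is not given in the sources used here. Reads from the overlapping exons of Col4a1 and Col4a2, and of the genes opposite the other chains, thus cannot be assigned with certainty.

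The dose comparisons asked whether RNA of these matrix genes changed with uracil. None of the 10 genes differed between 10 µM and control, 30 µM and control or 30 µM and 10 µM, or among the 3 doses, and 0 of the 13865 genes tested did (0%, edgeR, adjusted p under 0.05). DESeq2 and limma voom gave 0 genes in each of these tests as well. At an unadjusted p under 0.05, edgeR gave 96 genes for 10 µM, 595 for 30 µM, 323 for 30 µM against 10 µM and 212 for any difference, with 0 of the 10 basement membrane genes in each. The CPM ranges of control and of each dose overlapped for all 10 genes, where 0.0649% of all genes at 10 µM and 0.144% at 30 µM had ranges that did not overlap. Without the 3 libraries all 10 genes still overlapped, where 0.519% of all genes at each dose did not.

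Against control, 5 of the 10 genes were higher at 10 µM (median log2 fold change 0.02, all genes 0.01) and 8 at 30 µM (0.14, all genes 0.01), where 7306 and 7415 of the 13865 genes tested were higher. With the 3 libraries left out, 4 were higher at 10 µM (median -0.05) and 8 at 30 µM (0.01), where 6877 and 6737 of 13888 genes were. In numbers 2 to 5 alone 2 (-0.02) and 8 (0.05) were higher, where 6510 and 6710 of 13872 genes were. The largest difference in the full set was that of Col4a2 at 30 µM. Its lowest, median and highest values were 377, 404 and 446 CPM in control and 373, 430 and 940 CPM at 30 µM, with a log2 fold change of 0.31 ± 0.18 (SE, 95% interval -0.06 to 0.69, adjusted p = 0.931 by edgeR). The highest value is that of 30 µM 6. Without that library the log2 fold change was 0.05, and in numbers 2 to 5 alone it was 0.08 (-0.08 to 0.23). Col4a1 had a log2 fold change of 0.21 ± 0.12 at 30 µM in all 18 libraries and 0.01 ± 0.06 without the 3 libraries.

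Lama4 was 19.2, 54.2 and 80.2 CPM in control (lowest, median and highest), 19.4, 56.9 and 91.1 at 10 µM and 20.1, 58.3 and 88.4 at 30 µM. Its log2 fold changes were 0.18 ± 0.41 and 0.20 ± 0.41, and the intervals (-0.68 to 1.03 and -0.66 to 1.06) were the widest of the 10 genes, the spread between numbers being part of the error in this fit. In each of the 6 numbers Lama4 was higher at both uracil doses than in control, the only gene of the 10 for which this held. The share of all genes for which it holds was not counted. Some of these gaps were small, with 19.2, 19.4 and 20.1 CPM at control, 10 µM and 30 µM in number 6. With the replicate number as a block the log2 fold changes were 0.13 and 0.16 (adjusted p = 1.00 and 0.656 by edgeR). Leaving out 1 library moved them to between -0.0089 (without 10 µM 1) and 0.36 (without control 2) at 10 µM and between 0.029 (without control 6) and 0.39 (without control 2) at 30 µM, and limma voom gave 0.52 at 30 µM. With numbers 2 to 5 alone the log2 fold changes were 0.04 and 0.07. Without the 3 libraries they were 0.39 and 0.40, but there the control group lacks number 1, where Lama4 was high, and the uracil groups lack number 6, where it was low.

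Hspg2 was 796, 1044 and 2116 CPM in control (lowest, median and highest), 706, 873 and 2037 at 10 µM and 866, 927 and 3603 at 30 µM. Its log2 fold change at 10 µM was -0.20 ± 0.38 in all 18 libraries, -0.27 ± 0.08 without the 3 libraries and -0.18 ± 0.08 in numbers 2 to 5 alone. The unadjusted p was 0.608, 0.00366 and 0.0395 in these sets, and after adjustment over all genes it was 1.00, 0.998 and 1.00 (edgeR). Of all genes tested, 0.692%, 4.72% and 1.07% had an unadjusted p under 0.05 at 10 µM in the same sets. The set without the 3 libraries again lacks number 1 in control and number 6 at both uracil doses, where Hspg2 was 1090 CPM in control 6 and 706 and 897 CPM in 10 µM 1 and 30 µM 1, and with the number as a block its value there was -0.20. In numbers 2 to 5 Hspg2 was lower at 10 µM than in control in 3 of 4 numbers. At 30 µM the log2 fold change was 0.20 ± 0.38 in all 18 libraries and -0.14 ± 0.08 without the 3.

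The steadiest genes gave the narrowest intervals. In numbers 2 to 5 alone Lamb1 had a log2 fold change of -0.02 (-0.12 to 0.09) at 10 µM and 0.05 (-0.05 to 0.15) at 30 µM, and Col4a5 one of -0.02 (-0.15 to 0.11) and 0.05 (-0.07 to 0.18). Against 10 µM, all 10 genes were higher at 30 µM in the full set, where 7220 of the 13865 genes tested were. Their log2 fold changes were 0.01 to 0.40 with a median of 0.12 (all genes 0.01), and the smallest unadjusted p was 0.0783 (edgeR). In numbers 2 to 5 alone 9 were higher, with a median of 0.06, where 7014 of 13872 genes were. Some of the 10 genes are correlated with each other, so such counts are not of independent genes.

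**Figure D3:**
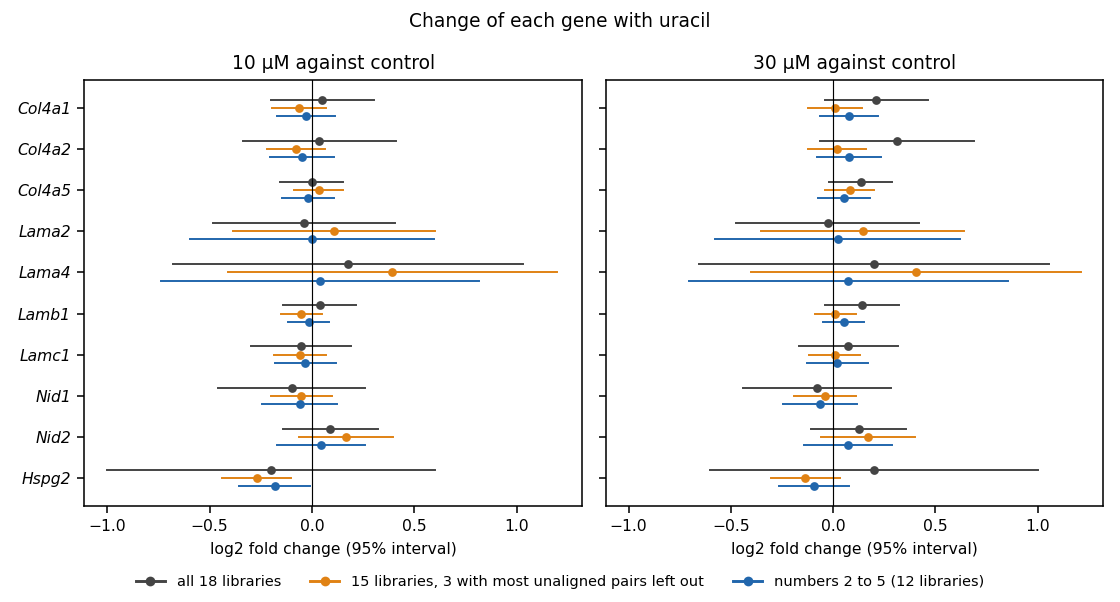
Log2 fold change of each gene at 10 µM (left) and 30 µM (right) against control from edgeR, with 95% intervals, in all 18 libraries, in 15 without the 3 with most unaligned pairs and in the 12 numbered 2 to 5. All intervals of the full set include 0, and that of Hspg2 narrows from -1.001 to 0.60 at 10 µM to -0.44 to -0.10 when the 3 libraries are left out and to -0.36 to -0.01 in numbers 2 to 5, with no adjusted p under 0.05.

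Over the 15 libraries with fewest unaligned pairs the genes fell into pairs and groups rather than one block. Of the 45 pairs of genes, 22 had a negative Pearson r of log2 CPM, and 2 had one over 0.9. Col4a1 and Col4a2 had an r of 0.95, and each had an r of 0.87 or 0.82 with Lamb1. Lama4, Nid2 and Lama2 had r of 0.83 to 0.93 with each other, and Nid1 had 0.79 with Lama2. Lamc1 ran opposite to these, with r of -0.74 with Lama2, -0.64 with Lama4, -0.62 with Nid2 and -0.75 with Nid1. In all 18 libraries Lamc1 and Nid1 had an r of 0.63, so that the sign rests on the 3 libraries left out. These libraries share numbers and doses and are not independent points.

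**Figure D4:**
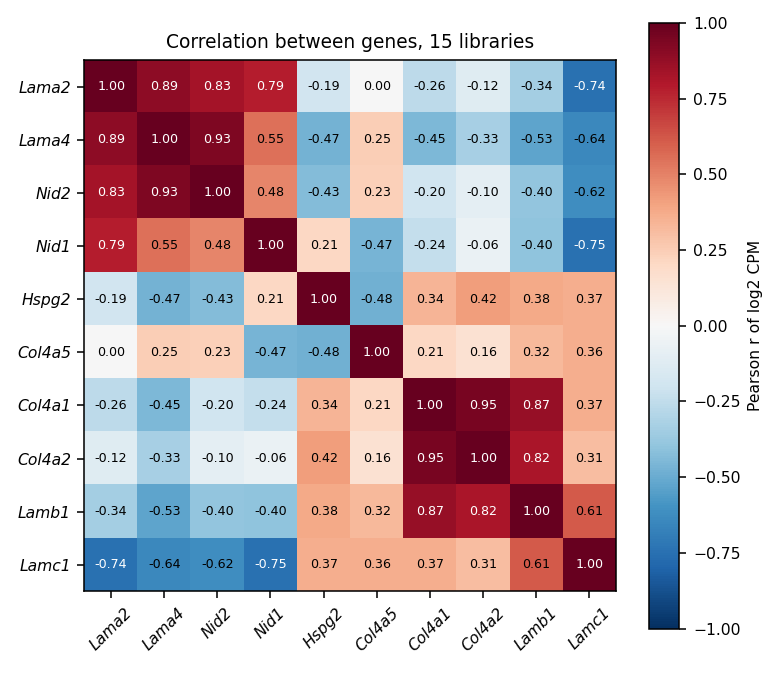
Pearson r of log2 CPM between the 10 genes over 15 libraries, in a colour scale from -1 to 1. Col4a1, Col4a2 and Lamb1 form a red block (0.82 to 0.95) and Lama2, Lama4 and Nid2 another (0.83 to 0.93), and Lamc1 is blue against the second block.

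Among the other 13043 genes with a mean of at least 1 CPM, those most like 9 of the genes over the same 15 libraries were mostly genes outside the matrix. For Lama4 they were Itgbl1, Sec22b and Olfml3 (r of 0.99 for the first and 0.98 for the third), and for Lama2 the Notch ligand gene Jag1, Pon3 and the PDGF receptor gene Pdgfrb (0.98 to 0.97). For Nid2 they were Maged2, Ostf1 and Efemp2, which encodes an elastic fibre protein (0.97 to 0.96). Nid1 was most like Adam19, the hyaluronan receptor gene Cd44 and the fibronectin receptor chain gene Itga5 (0.95 to 0.93). For Hspg2 they were Prrc2a, Sipa1l3 and Wdfy3 (0.97 to 0.93). Col4a1 was most like Col4a2, Chd3 and Gtf3c1 (0.95 to 0.92), and Col4a2 like Col4a1, Gtf3c1 and Armc5 (0.95 to 0.89). Col4a5 was most like Sardh, Hps1 and Pcyt2 (0.96 to 0.91), and Lamb1 like Mau2, Tmem132a and Vps37b (0.91 to 0.89). Over all 18 libraries the r of the pairs named here ran from 0.38 (Col4a5 and Pcyt2) to 0.995 (Hspg2 and Prrc2a), with 0.57 for Lamb1 and Mau2.

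Other basement membrane genes also differed by number. Of 25 further components 18 were tested and 8 differed, of 11 receptors 6 did, and of 12 genes for the synthesis and cross-linking of collagen IV and laminin 3 did (edgeR, adjusted p under 0.05, against the 12.6% of all genes given above). Without the 3 libraries these counts were 13 of 19, 6 of 11 and 8 of 12, against 20.8%. No gene of these lists passed the threshold in a dose comparison.

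Among the components with the smallest p, Smoc1, a calcium-binding matrix protein, had means over the 15 libraries of 8.64 to 9.06 CPM in numbers 1 to 3 and 3.70 to 5.50 CPM in numbers 4 to 6 (adjusted p = 2.70e-05 in all 18 libraries by edgeR). Col15a1 and Col18a1, collagens of the basement membrane zone, were likewise higher in numbers 1 to 3, at 5.73 to 7.25 against 2.27 to 4.65 CPM and at 113 to 128 against 60.9 to 79.2 CPM. Of the receptors, Itga1, the alpha chain of a collagen IV binding integrin, had 17.3 to 22.1 CPM in numbers 1 to 3 and 5.55 to 10.6 CPM in numbers 4 to 6 (adjusted p = 1.10e-07 by edgeR). Itga3 and Bcam, both receptors for laminin alpha 5, went the other way, with 78.0 to 83.8 against 101 to 122 CPM and 2.48 to 2.85 against 4.04 to 4.98 CPM. Of the synthesis genes, the prolyl hydroxylase gene P4ha2 had 108 to 113 CPM in numbers 1 to 3 and 70.8 to 90.02 in numbers 4 to 6. Loxl2, a cross-linking oxidase of collagen IV, was lowest in number 5, at 62.9 CPM. Its highest mean over the 15 libraries was 92.8 CPM. In these 15 libraries the value of number 6 is that of control 6 alone, and number 1 lacks control 1. The lysyl hydroxylase gene Plod2 had 90.2 to 91.7 CPM in numbers 1, 5 and 6 and 102 to 105 CPM in numbers 2 to 4 (adjusted p = 0.0496 by edgeR).

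**Figure D5:**
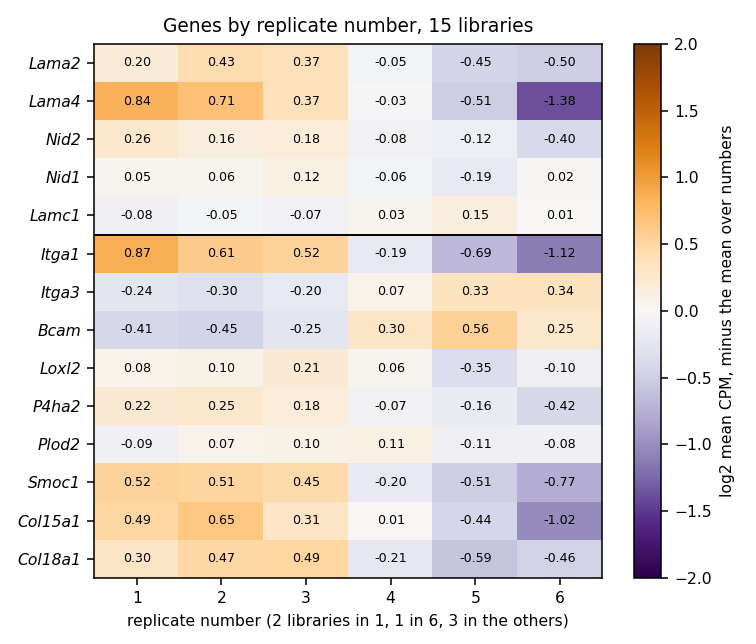
Log2 mean CPM per replicate number over 15 libraries, each gene minus its mean over the 6 numbers. Above the line are the 5 basement membrane genes called by number in these 15 libraries. Below the line are 9 related genes, picked by their p for number in all 18 libraries. Lama2, Lama4, Nid2, Itga1, Smoc1, Col15a1, Col18a1 and P4ha2 are above their mean in numbers 1 to 3, and Itga3 and Bcam below it.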

How the data were processed

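Counts of read pairs per Ensembl gene, with no normalisation, were deposited by the authors as 1 table of 18 libraries (0 columns matched no sample). Libraries were stranded total RNA with ribosomal RNA depleted, read as paired ends. The submitters' processing notes name FastQC, HISAT2, SAMtools 1.2 and HTSeq, and a human build, GRCh38, although the gene identifiers are those of mouse. The build of the counts, the annotation release and the strand setting are not given in the sources used here. The 5 closing entries for uncounted pairs (6.85% to 15.5% outside genes, 0.503% to 1.64% ambiguous, 4.79% to 13.1% of low alignment quality, 1.72% to 54.2% unaligned and 5.59% to 20.2% aligned to several places) were kept out. GENCODE M39 on GRCm39 named 51731 of 55487 identifiers and gave the positions and exon lengths. The study's methods removed a vehicle and a 30 µM sample for human RNA.

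The counts were fitted with edgeR 4.0.16 in R 4.3.3 (filterByExpr on dose, TMM, robust quasi-likelihood fits on all 18 libraries). Dose contrasts and an F test over doses used dose alone, and the number test added the number to dose. P-values were adjusted by Benjamini-Hochberg over all genes tested (threshold 0.05), and contrasts were two-sided. Standard errors are the log2 fold change over the root of its F statistic. CPM are TMM-scaled, and log2 CPM in correlations has a prior count of 2. Other settings were DESeq2 1.42.0, limma 3.58.1 voom with quality weights, other size factors, library totals, no filter, at least 10 counts in every library, only the groups compared, no dose term, the replicate number as a block, and removal of each library or of the 2 or 3 with most unaligned pairs. Numbers 2 to 5 alone, with and without the block, were added after seeing the data. The genes and lists were chosen with earlier results of these data known. Besides the 10 genes, those named are, per related list, the 3 with the smallest p for number and a mean of at least 1 CPM and any called by dose, the 3 genes most correlated with each, and per marker list the highest gene and those at 0. Some genes that this rule names are not reported here. The scripts were tested on simulated data.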

Additional observations from a re-analysis of the deposited data

Results flagged for a closer look

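Within each dose, the gap between the highest or lowest of the 6 libraries and its nearest neighbour was compared with the range (Dixon's test at the 95% level). Of the 30 sets of values of the 10 genes at 3 doses, 12 passed, where chance gives about 1 in 20 sets. The 12 were in the 3 libraries with most unaligned pairs, with 5 in control 1, 3 in 10 µM 6 and 4 in 30 µM 6. Genes of 1 library are not independent sets. The share of unaligned pairs, by which these libraries were picked, also passed at each dose.

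In control 1, Hspg2 (2116 CPM), Nid1 (792 CPM) and Lamc1 (726 CPM) lay above the other 5 control libraries and Col4a1 (521 CPM) and Lamb1 (425 CPM) below them, with 54.2% of pairs unaligned. In 10 µM 6, Hspg2 (2037 CPM), Nid1 (659 CPM) and Col4a2 (542 CPM) were high, with 5.24% of pairs unaligned. In 30 µM 6, Hspg2 (3603 CPM), Col4a2 (940 CPM), Lamc1 (887 CPM) and Nid1 (680 CPM) were high, with 37.9% of pairs unaligned. Hspg2 and Nid1 were thus high in all 3, while Col4a1 and Lamb1 passed in control 1 alone, on the low side. In 30 µM 6 both had their highest value of all libraries (1171 and 714 CPM), which did not pass. The part of the unaligned pairs in these values was not tested.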

How the results depend on the processing

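In the dose comparisons 0 of the 10 genes and 0 genes in all passed the threshold under every alternative run, by edgeR, DESeq2 and limma voom, and the lowest adjusted p of any of the 10 was 0.656. The number test gave 1745 genes and 3 of the 10 in the full set. It gave 2989 genes and 7 of the 10 with DESeq2, 5879 and 9 with voom, 3287 and 5 without the control and 30 µM library with most unaligned pairs, 2890 and 5 without 3 libraries, and 2755 and 5 with numbers 2 to 5 alone. Leaving out each library in turn gave 1272 to 3498 genes and 3 to 8 of the 10. Lama4, Lama2 and Nid2 passed in all of these fits. The cause of the larger counts was not tested. Nor was the part of depth, which was lowest in control 1 at 3.96 M counts.

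No difference in dose that changed sign passed the threshold. At 10 µM against control, voom gave log2 fold changes of -0.022 for Col4a1, -0.041 for Col4a2, 0.025 for Col4a5, 0.11 for Lama2 and -0.022 for Lamb1. Without the 2 libraries they were -0.027 for Col4a1, 0.0013 for Col4a5, 0.069 for Lama2, -0.011 for Lamb1, 0.012 for Lamc1, 0.076 for Nid1 and 0.049 for Hspg2. Without the 3 they were -0.062 for Col4a1, -0.076 for Col4a2, 0.033 for Col4a5, 0.11 for Lama2 and -0.051 for Lamb1. Numbers 2 to 5 alone gave -0.028 for Col4a1, -0.050 for Col4a2 and -0.015 for Lamb1. Col4a5 was 0.012 with library totals, 0.016 with no filter and 0.00078 with the groups compared alone. At 30 µM, Lama2 was 0.22 with voom, 0.15 without the 2 libraries, 0.14 without the 3 and 0.023 in numbers 2 to 5. Hspg2 was -0.15, -0.13, -0.14 and -0.094 in the same order, and Lamc1 was -0.023 with voom.

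Leaving out each library in turn gave ranges at 10 µM of -0.031 to 0.088 for Col4a1, -0.046 to 0.067 for Col4a2, -0.034 to 0.040 for Col4a5, -0.13 to 0.065 for Lama2, -0.0089 to 0.36 for Lama4, -0.016 to 0.064 for Lamb1, -0.11 to 0.0067 for Lamc1, -0.21 to 0.071 for Nid1 and -0.50 to 0.044 for Hspg2. At 30 µM they were -0.12 to 0.074 for Lama2, -0.046 to 0.13 for Lamc1, -0.20 to 0.092 for Nid1 and -0.37 without 30 µM 6 to 0.44 without control 1 for Hspg2.

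Libraries with the same number had an r over 0.1 in their deviations from the dose mean in 16 of 18 pairs. The range was -0.10 to 0.71, and the pairs of control 1 were under 0. Values for pairs of different number are not given here. Of the 18 libraries 12 correlated best with one of their own number. The count that chance would give was not worked out, and the labels do not say what libraries of a number share. With the replicate number as a block, 0 genes passed in each dose test, and Hspg2 at 30 µM was -0.027. With the block and without the 3 libraries, Col4a1 was -0.011, Col4a2 -0.030 and Lamb1 -0.012 at 10 µM, and Lama2 was 0.040 and Hspg2 -0.063 at 30 µM. With the block in numbers 2 to 5, Col4a1 was -0.028, Col4a2 -0.049, Lama2 0.0049 and Lamb1 -0.015 at 10 µM, and Lama2 was 0.033 and Hspg2 -0.088 at 30 µM.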

Other observations

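Chains of the same families outside the 10 genes also differed by replicate number (edgeR, over all 18 libraries), and those named here were chosen after their values were seen. Lama5, the alpha chain of the laminins of many epithelial and vascular basement membranes, had means over the 15 libraries with fewest unaligned pairs of 494 to 541 CPM in numbers 1 to 3 and 562 to 652 CPM in numbers 4 to 6 (adjusted p = 0.00769). Lama2 and Lama4 were lower in numbers 4 to 6, so the alpha chains did not move in 1 direction. Lamb2, the beta chain that can take the place of Lamb1, had 340 to 383 CPM in numbers 1 to 3 and 233 to 305 CPM in numbers 4 to 6 (adjusted p = 0.0133). Col4a6, which lies beside Col4a5 and encodes its partner chain, had 55.7 to 63.5 CPM in numbers 1 to 3 and 38.5 to 54.3 CPM in numbers 4 to 6 (adjusted p = 0.0307), whereas Col4a5 did not pass the threshold. Col4a3, Col4a4, Lama3 and Lamc3 were at or near 0, each with a mean under 1 CPM. In the means over 15 libraries given here, number 6 is control 6 alone and number 1 lacks control 1.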
